A study of Mus musculus with 6 samples.

Results

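Wt1-expressing endothelial cells of the mouse heart are the cells that carried both RNA of Wt1, the zinc finger transcription factor best known from the epicardium, and RNA of vascular endothelial genes. They were picked out of 18283 deposited single-cell barcodes by their own counts of unique molecular identifiers (UMIs, each standing for 1 captured RNA molecule). A barcode needed at least 1000 UMIs, at least 3 UMIs summed over Pecam1, Cdh5, Egfl7 and Kdr, which encode junction, matrix and VEGF receptor proteins of endothelium, and at most 1 UMI summed over Col1a1, Dcn, Upk3b and C1qa, which mark fibroblasts, mesothelium and macrophages. It also needed at least 1 UMI of Wt1 and none of Msln, a mesothelial surface protein. This gave 941 cells among 9629 endothelial cells and among 12493 barcodes of at least 1000 UMIs. The other endothelial cells without Msln, 8611 in all, held no Wt1 UMI and are called Wt1-free here.

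The 6 libraries were made from the hearts of C57BL/6 mice, at ages between 3 and 6 months. The Dsp_het group held 3 libraries of the genotype Wt1CreERT2:Rosa26mTmG:DspW/F, in which 1 allele of Dsp, the gene of the desmosomal protein desmoplakin, is conditional. The control group held 3 libraries of the genotype Wt1CreERT2:Rosa26mTmG. Mice of both groups thus carried the Cre recombinase driven by Wt1 and the reporter that turns from Tomato to EGFP where Cre has acted, and droplet libraries were made from sorted EGFP-positive cells depleted of myocytes. The sort is a limit of the model here, since the gene that defines these cells also drives the Cre that labels every sorted cell, and neither the inducing dose nor its timing is stated in the labels. The labels give replicate numbers but no animals, so p-values measure the spread between these libraries, which may be technical.

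As background, WT1 binds GC-rich DNA and both activates and represses genes. In the developing heart it is a mark of the epicardium, the mesothelial sheet over the heart, and of cells that leave it. In adult hearts WT1 protein has also been described in endothelial cells, above all of growing or injured vessels, where it has been tied to the transcription factor ETS1 and to the intermediate filament protein nestin.

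Library totals ran between 7573157 and 17083660 UMIs. The Dsp_het libraries gave 173, 128 and 98 Wt1-expressing endothelial cells, and the control libraries gave 200, 133 and 209. Their median depth was 4479 UMIs, against 3748 UMIs in Wt1-free endothelial cells, with a lowest total of 1003 and a highest of 51161. Of 13183 distinct barcodes in the series, 1689 occurred in several libraries. Each was kept in the library that held most of its UMIs, which set aside 589 barcodes of at least 1000 UMIs. Among the 941 cells, 124 carried such a shared barcode, with a share per library between 1.73% in Dsp_het library 1 and 38.8% in Dsp_het library 3, and 27.1% in control library 2. Results are therefore also given for the cells whose barcode occurred in 1 library. Xist, the RNA that silences an X chromosome in females, had 445 UMIs in the Wt1-expressing endothelial cells of Dsp_het library 2 and 715 UMIs in those of control library 3, and 0 in those of the other 4 libraries. Dsp itself could not check the labels in these cells, since it had 2 UMIs over all 941.

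Wt1 itself was sparse. Of the 941 cells, 820 held 1 Wt1 UMI, 99 held 2 and 22 held 3 or more, with 6 as the most in any cell and 1089 UMIs in all. These counts chose the cells and are given as a description. Near the limits of the rule, 3 of the cells had 3 UMIs of the endothelial genes and 4 otherwise eligible cells had 2; the median was 24. A single UMI of the fibroblast, mesothelial and macrophage genes was held by 100 of the cells, and 13 otherwise eligible cells held 2. The minimum of 1000 UMIs was cleared by less than 100 by 10 of the cells and missed by no more than 100 by 2 otherwise eligible cells, and Msln left out 12 endothelial cells that held Wt1. Wt1 lies on chromosome 2, at 105126529-105173616 on the plus strand of GRCm38. Its antisense gene Wt1os lies beside it on the minus strand, at 105076538-105126510, so that it starts next to the start of Wt1 and runs away from it. Wt1os had 6 UMIs in the 941 cells.

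The cells carried the RNA of endothelium. All 16 endothelial list genes that the rule did not use were detected in them, and the list summed to between 29646 and 36647 UMIs of the list per 1000000 UMIs (CPM) over the 6 libraries, against 30246 to 36633 CPM in Wt1-free cells matched for depth. Of the 28 mesothelial list genes that the rule did not use, 24 were detected in the 926 Wt1-expressing cells that had a matched cell. In the matched cells 24 were detected too. Muc16, Aldh1a2, Bnc1 and Slpi were at 0 in those Wt1-expressing cells, and Krt8, Lrrn4, Bnc2 and Slpi in the matched cells. The whole mesothelial list summed to 2409 ± 319 CPM in the Wt1-expressing cells and 2481 ± 161 CPM in the matched cells (SD, n = 6 libraries each), mostly through Cav1 and Cd200, which endothelium expresses too; Cav1 alone averaged 1634 and 1639 CPM and Cd200 729 and 787 CPM in the same order. The 21 remaining fibroblast genes summed to 180 ± 54.9 CPM and 184 ± 53.5 CPM, and the 18 remaining macrophage genes to 69.8 ± 28.0 CPM and 101 ± 55.5 CPM, again with the Wt1-expressing cells given first. F13a1, Ccr2 and Ptprc were at 0 in the Wt1-expressing cells that had a match, and Cx3cr1 and Ccr2 in the matched cells.

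Free RNA in droplets can place a UMI in a cell that does not express the gene, so the Wt1 share was set beside other cell types. Wt1 was found in 9.85% of the 9552 endothelial cells without Msln (95% Clopper-Pearson interval 9.26% to 10.5%, which covers counting error only), at a median of 3815 UMIs. Cells picked by C1q genes as macrophages, which should lack it, held Wt1 in 1 of 154 cells, or 0.649% (interval 0.0164% to 3.56%), at a median of 9929.5 UMIs. The macrophages were the deeper cells, and their value rests on 1 UMI. Macrophages of Dsp_het library 3 and control libraries 1, 2 and 3 numbered 26, 44, 30 and 40, and 0 of them held Wt1. The UMI thus came from Dsp_het library 1 or 2, where macrophages were too few to be given a value per library. The level of free Wt1 RNA in those libraries was therefore not tested with macrophages. Cells picked by at least 5 UMIs of fibroblast genes held Wt1 in 12.2% of 1088 cells at a median of 7497 UMIs, and cells picked by mesothelial genes in 76.6% of 325 at 8817 UMIs. On the scale of CPM, Wt1 had 26.2 in endothelial cells, 24.4 in fibroblasts, 0.627 in macrophages and 261 in mesothelial cells. The fibroblast value rested on Dsp_het library 1, with 138 of its 209 Wt1 UMIs, and was 16.0 CPM without that library. In the other 5 libraries the fibroblasts lay between 14.1 and 17.7 CPM and the endothelial cells between 21.8 and 31.0 CPM.

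The ratio of Wt1 to other epicardial genes was described in endothelial and in mesothelial cells. Lrrn4, a mesothelial membrane protein, had 20 UMIs in endothelial cells without Msln, beside 1089 of Wt1, and 2110 UMIs in mesothelial cells, beside 786 of Wt1. That is 54.5 Wt1 UMIs for each Lrrn4 UMI in endothelial cells and 0.373 in mesothelial cells. For Upk1b, a uroplakin, the ratios were 43.6 and 0.477, and for Krt8, a keratin, 109 and 0.750, in the same order. Krt19, a further keratin that helped to pick the mesothelial cells, gave 7.95 and 0.195. The rule had left out endothelial cells with Msln and limited Upk3b before these genes were counted, and the part of free RNA in the Wt1 UMIs was not tested.

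The share of endothelial cells with a Wt1 UMI followed depth. It was 5.38% of cells of 1000 to 2000 UMIs, 8.12% of cells of 2000 to 4000, 11.5% of cells of 4000 to 8000 and 19.5% of deeper cells. The level per UMI ran the other way, with 36.1, 29.5, 25.04 and 21.8 CPM in the same order. A cell without a Wt1 UMI is thus not shown to lack Wt1 RNA, and every comparison with Wt1-free cells below sets detected against not detected.

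Between genotypes no difference in the share was detectable. It was 9.17%, 8.83% and 13.7% in the Dsp_het libraries and 9.95%, 10.7% and 9.29% in the control libraries. Dsp_het library 3 stood highest, and it was also the deepest, with a median of 5951 UMIs. The means were 10.6 ± 2.70% in Dsp_het and 9.99 ± 0.722% in control (SD, n = 3 each), a difference of 0.565 percentage points with p = 1 in the two-sided exact permutation test, which cannot go below 0.1 for 3 against 3. Without Dsp_het library 3 the difference was -0.991 percentage points. With each cell thinned to 1000 UMIs, the share was 2.64 ± 0.386% in Dsp_het and 2.86 ± 0.396% in control (exact p = 0.5), and Dsp_het library 3 no longer stood out.

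**Figure D1:**
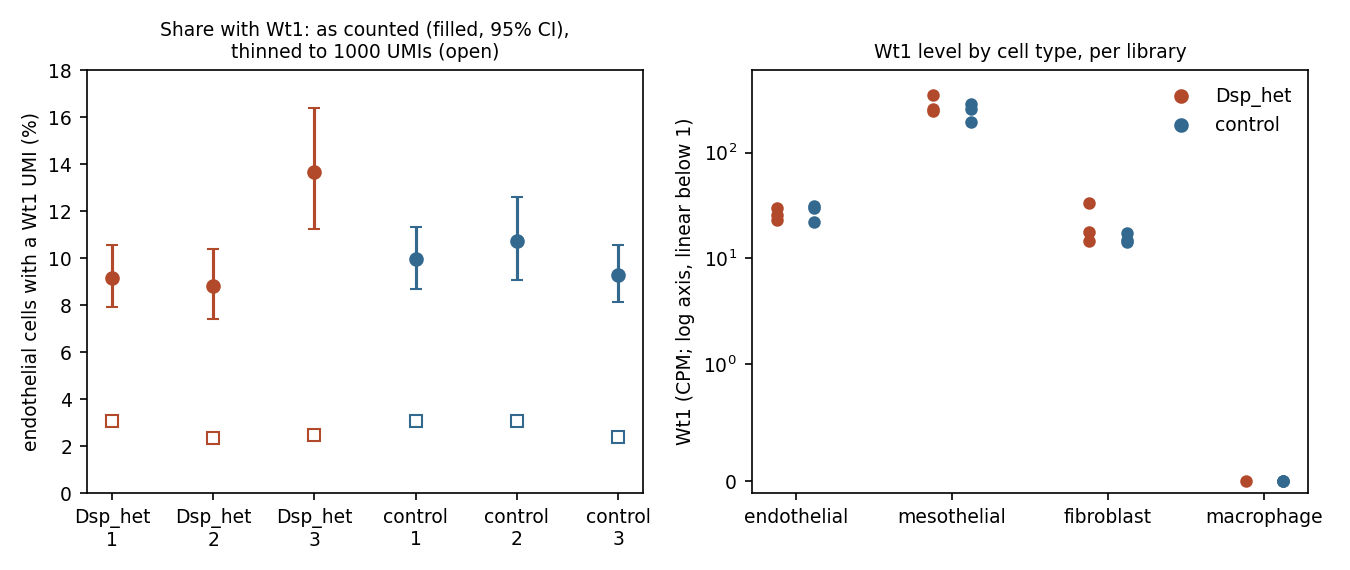
Left, share of endothelial cells without Msln that held a Wt1 UMI in each library, in percent, as counted with 95% Clopper-Pearson intervals and after thinning each cell to 1000 UMIs. Right, Wt1 level in CPM on a log axis in cells of 4 types, 1 point per library with at least 20 such cells. The as-counted share of 13.7% in Dsp_het library 3 falls among the others after thinning, and endothelial levels lie far under those of mesothelial cells. Dsp_het library 1 has the highest fibroblast level, 33.5 CPM, and the other 5 lie between 14.1 and 17.7 CPM.

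To ask what else differed in the Wt1-expressing endothelial cells, each was paired with the Wt1-free endothelial cell of the same library nearest to it in UMI total and within 5% of it. A partner was found for 926 cells, and both sets had a median of 4411 UMIs. Counts were summed per library and set, and the 12 sums were fitted with edgeR's quasi-likelihood test with the library as a block. Values below are normalized CPM of these sums, and adjusted p-values are by Benjamini-Hochberg over all 8077 genes tested. The 10 genes of the rule were left out of the tests.

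Few genes differed between Wt1-expressing endothelial cells and their partners. Of 8077 genes, 5 were higher (0.0619%) and 12 lower (0.149%), together 17 (0.21%), and 618 had an unadjusted p under 0.05. The higher genes were Cldn5, Btnl9, Nes, Kitl and Adamts1, each by between 0.23 and 0.44 on the log2 scale and each higher in 6 of 6 libraries. The lower ones were Apoe, Cd9, Emp3, Igf1, Plvap, Igfbp6, Mgp, Cytl1, Col15a1, Cd74, H2-Ab1 and H2-Eb1. By list, 2 of 12 venous, 2 of 6 endocardial and 3 of 14 MHC genes passed as lower, with Plvap counted on both of the first lists, and 1 of 14 desmosome and adherens junction genes, Cldn5, passed as higher. Over all genes tested the median difference was -0.003 and 49.3% were higher.

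Cldn5 encodes claudin-5, the main claudin of endothelial tight junctions, and had the smallest p. It had 678, 577 and 336 CPM in Wt1-expressing cells of the Dsp_het libraries, against 480, 375 and 300 CPM in their partners, and 580, 846 and 561 CPM in Wt1-expressing cells of the control libraries, against 489, 706 and 399.5 CPM in their partners. The Wt1-expressing cells were higher in every library, although the levels of the sums overlapped between libraries. This was a log2 fold change of 0.38 with a standard error of 0.06 (adjusted p = 0.00243, edgeR); errors after ± on log2 fold changes are standard errors below too. Cldn5 was also the only 1 of the 17 that passed with DESeq2, at an adjusted p of 0.022. UMIs of Cldn5 were found in 56.0% of Wt1-expressing cells and in 51.0% of partners.

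Nes encodes nestin, an intermediate filament protein of growing vessels whose gene is a reported WT1 target. Its level was 246, 184 and 282 CPM in Wt1-expressing cells of the Dsp_het libraries, against 145, 157 and 196 CPM in partners. In the control libraries it was 243, 267 and 302 CPM in Wt1-expressing cells, against 241, 182 and 220 CPM in partners. Control library 1 showed almost no gap and the other 5 showed a clear one. The log2 fold change was 0.41 ± 0.08 (adjusted p = 0.0202, edgeR), and 53.6% of Wt1-expressing cells held a Nes UMI against 46.7% of partners.

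Btnl9 encodes a butyrophilin-like surface protein that marks capillary endothelium of the heart. Its 6 Wt1-expressing sums, 336, 298 and 463 CPM in Dsp_het and 285, 309 and 256 CPM in control, stood against 225, 234 and 279 CPM and 242, 274 and 211 CPM in the partners. The log2 fold change was 0.39 ± 0.07 (adjusted p = 0.0132, edgeR). Kitl, the ligand of the KIT receptor, averaged 774 ± 31.1 CPM in Wt1-expressing cells and 657 ± 41.8 CPM in partners (SD, n = 6), with a log2 fold change of 0.23 ± 0.05 (adjusted p = 0.0284, edgeR). Adamts1, a secreted metalloprotease that acts on proteoglycans, averaged 126 ± 21.7 CPM and 92.1 ± 9.75 CPM in the same order, with a log2 fold change of 0.44 ± 0.10 (adjusted p = 0.0372, edgeR). For Kitl the lowest Wt1-expressing sum, 735 CPM, still lay above the highest partner sum, 708 CPM, whereas for Adamts1 103 CPM in control library 3 lay under the 106 CPM of the partners of Dsp_het library 3.

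**Figure D2:**
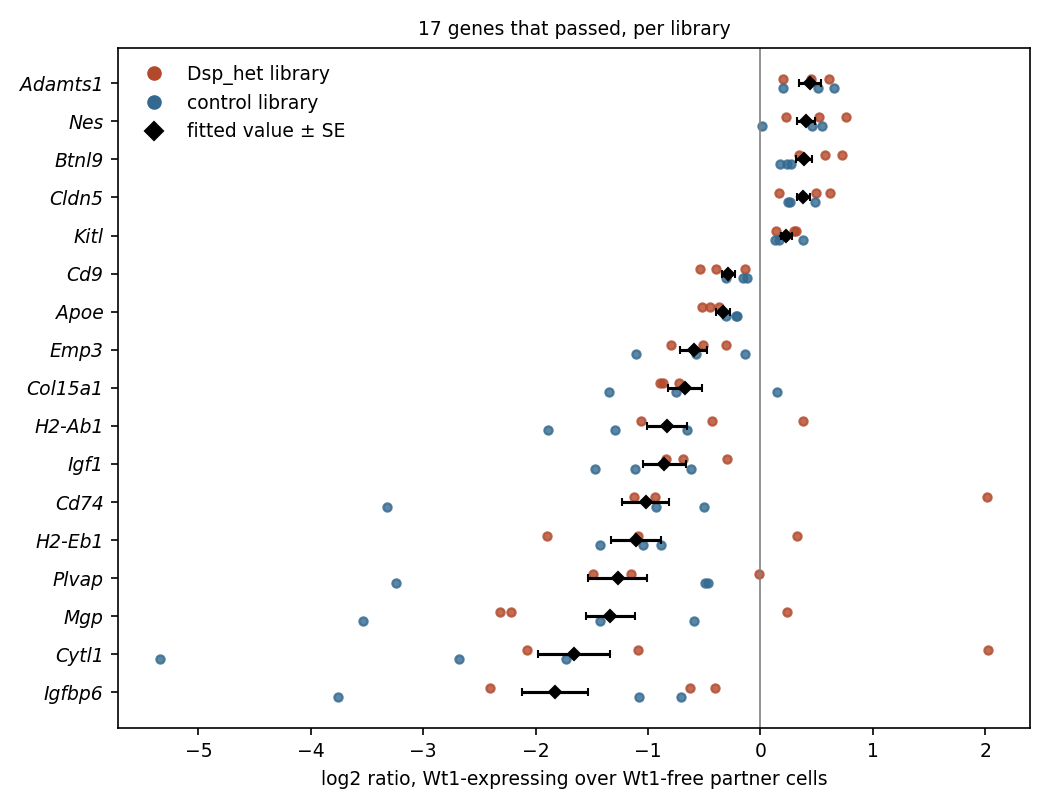
Log2 ratio of normalized CPM (with 1 CPM added) in Wt1-expressing over matched Wt1-free endothelial cells for the 17 genes that passed, 1 point per library, with the fitted log2 fold change and its standard error as a diamond. The 5 higher genes lie to the right of 0 in all 6 libraries, while Mgp, Cytl1, Cd74, H2-Eb1, H2-Ab1 and Col15a1 each have 1 library on the other side.

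Among the lower genes, Apoe and Cd9 were widely expressed. Apoe, the apolipoprotein of lipid transport, averaged 330 ± 67.9 CPM in Wt1-expressing cells and 416 ± 68.0 CPM in partners (SD, n = 6), lower in 6 of 6 libraries, with a log2 fold change of -0.33 ± 0.06 (adjusted p = 0.0104, edgeR). An Apoe UMI was found in 54.6% of Wt1-expressing cells and 63.3% of partners, so fewer Wt1-expressing cells held it. Cd9, a tetraspanin of the cell surface, averaged 609 ± 94.1 CPM and 749 ± 185 CPM in the same order, also lower in 6 of 6, with a log2 fold change of -0.28 ± 0.05 (adjusted p = 0.0153, edgeR). Emp3, a small membrane protein, and Igf1, the growth factor, were lower in 6 of 6 libraries, with log2 fold changes of -0.59 ± 0.12 and -0.85 ± 0.19 and adjusted p-values of 0.0202 and 0.0460 (edgeR). Igf1 was sparse, with 89 UMIs in 48 Wt1-expressing cells and 159 UMIs in 71 partners.

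Of 5 further lower genes, several rested on few cells. Igfbp6, an IGF-binding protein that mesothelium also makes, had 45 UMIs in Wt1-expressing cells and 169 in partners, and 5 of the 926 partner cells held 73.4% of the partners' count. Cytl1, a small secreted protein of endocardium, had 58 UMIs in 14 Wt1-expressing cells and 175 UMIs in 21 partners. Mgp, matrix Gla protein, an inhibitor of calcification that is high in large vessels, had 422 UMIs in 122 Wt1-expressing cells and 1023 UMIs in 123 partners, and the top 5 cells held 43.1% and 44.5% of them. Nearly the same number of cells held Mgp in both sets, with more UMIs per holding cell in the partners. The log2 fold changes were -1.82 ± 0.30 for Igfbp6 and -1.33 ± 0.22 for Mgp (both adjusted p = 0.0031, edgeR) and -1.66 ± 0.32 for Cytl1 (adjusted p = 0.0153). Plvap, which forms the diaphragms of fenestrated and venous endothelium, had 57 and 139 UMIs in 29 and 42 cells, with a log2 fold change of -1.27 ± 0.26 (adjusted p = 0.0245, edgeR). Col15a1, a basement membrane collagen, had 225 and 350 UMIs in 128 and 148 cells, with Wt1-expressing cells first as before, and -0.67 ± 0.15 (adjusted p = 0.0424, edgeR).

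The third group of lower genes belongs to MHC class II, which presents peptides to T cells. Cd74, the invariant chain, had 154 UMIs in Wt1-expressing cells and 309 in partners. H2-Ab1 had 129 and 225, and H2-Eb1 70 and 151. These UMIs came from few of the 926 cells in each set: 66 and 77 cells for Cd74, 70 and 77 for H2-Ab1, and 39 and 61 for H2-Eb1. The top 5 cells held 39.6% and 45.3% of the Cd74 UMIs. For Cd74 and H2-Ab1 the numbers of holding cells were thus close, with more UMIs per holding cell in the partners. Their log2 fold changes were -1.02 ± 0.21, -0.83 ± 0.18 and -1.11 ± 0.22, with adjusted p-values of 0.0231, 0.0376 and 0.0202 (edgeR). Each was lower in 5 of 6 libraries, and Dsp_het library 2 was the exception for all of them. H2-Aa, the partner chain of H2-Ab1, had a log2 fold change of -0.69 and H2-DMb1, which helps load peptides, -0.81, and neither passed (adjusted p = 0.325 and 0.614). Class I genes were close to 0: H2-K1 -0.03, H2-D1 -0.07 and B2m -0.02. Of 14 MHC genes tested, 3 passed and all of those were lower. Macrophages and other leukocytes are rich in class II RNA, and the remaining macrophage genes, which include Cd74, summed lower in the Wt1-expressing cells in 5 of 6 libraries; their part in the class II result was not tested. H2 genes have close relatives in the genome, and the labels do not say how shared reads were counted.

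Promoter sequences were at hand for 13 of the 17 genes, from RefSeq on GRCm38.p6, as windows of 250 bases before and 50 after the start. The windows were searched on both strands for GCGTGGGAG, a WT1 element, for GCGGGGGCG, the related EGR1 element, for CTGATTGG, the Y box of MHC class II promoters, and for CCGGAAG, an ETS element. These motifs occur in 0.444%, 2.92%, 4.31% and 9.12% of all 27025 windows, and in 0.799%, 6.07%, 5.72% and 20.98% of the 6379 windows of genes that were tested, and no 2 of them overlapped in the 13 windows. Of the 5 higher genes, Kitl held the ETS element and none held the WT1 or EGR1 element. Of the 8 lower genes with a window, H2-Eb1 held the Y box at position 189, counted from the 5′ end. The stretches before the start of the gene with the smallest p and of the class II gene are shown, in lower case with the Y box in capitals, at chr16:18776597-18776846 for Cldn5 and chr17:34305617-34305866 for H2-Eb1, both on the plus strand. These are descriptions of letters in a window, and say nothing of binding.
Cldn5: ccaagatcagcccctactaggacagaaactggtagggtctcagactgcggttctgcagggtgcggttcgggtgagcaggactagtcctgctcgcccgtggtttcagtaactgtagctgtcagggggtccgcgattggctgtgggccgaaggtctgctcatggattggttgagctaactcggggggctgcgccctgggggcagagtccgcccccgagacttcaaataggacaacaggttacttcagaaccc
H2-Eb1: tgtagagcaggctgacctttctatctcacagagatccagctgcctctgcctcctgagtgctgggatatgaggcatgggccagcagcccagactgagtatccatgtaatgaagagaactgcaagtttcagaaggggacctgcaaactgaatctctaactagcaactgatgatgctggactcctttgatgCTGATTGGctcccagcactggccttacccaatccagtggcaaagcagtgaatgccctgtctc

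The choice of partner cells decided many of these calls. With 2 partners per cell, 4 partners per cell, or every Wt1-free cell weighted to the depth of the Wt1-expressing cells, the last of which, like the 4 partners, was added after the first results were seen, 20, 92 and 24 genes passed. The genes that passed under all 4 choices were 7: Adamts1, Btnl9, Cldn5, Kitl and Nes, all higher, and Apoe and Cd74, both lower. Over these choices Cldn5 ran between 0.32 and 0.40, Nes between 0.34 and 0.44 and Apoe between -0.30 and -0.37. Fn1, Nedd9, Kctd12b and Pim3 missed the threshold with 1 partner and passed under each other choice. With 4 partners and with the weighted cells, Ccl21a, on the lymphatic list, was at -5.29 and -6.73. The haemoglobin gene Hbb-bs was at -4.13 and -4.02 there, and both genes passed. Igfbp6 shrank to -0.72, Mgp to -0.78 and Cytl1 to -0.96 with the weighted cells, and none of them passed there (adjusted p = 0.369, 0.097 and 0.251, edgeR). With 4 partners Cytl1 was at -0.36 and Igfbp6 at -0.68 (adjusted p = 0.786 and 0.248, edgeR), while Mgp, at -0.64, passed (adjusted p = 0.00244). Among cells whose barcode occurred in 1 library, 81 genes passed, the 5 higher genes kept log2 fold changes between 0.22 and 0.47 and passed, and Apoe was at -0.50. Cd74 was at -0.34 and Plvap at -0.44 there, and neither passed (adjusted p = 0.784 and 0.773, edgeR). H2-Ab1, H2-Eb1, Cytl1 and Col15a1, at -0.88, -0.74, -1.28 and -0.37, did not pass there either (adjusted p = 0.0645, 0.395, 0.15 and 0.464).

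**Figure D3:**
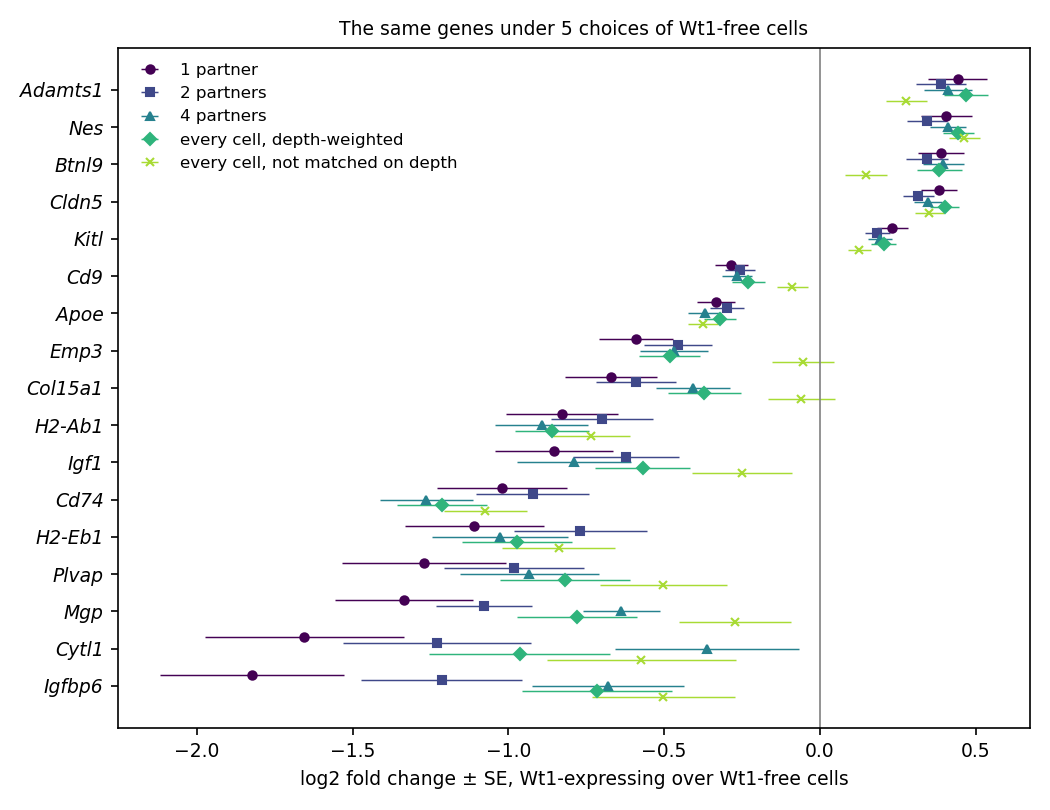
Fitted log2 fold change with its standard error for the 17 genes under 5 choices of Wt1-free endothelial cells: 1, 2 or 4 depth-matched partners, every cell weighted to matching depth, and every cell with no match on depth. The 5 higher genes and Apoe stay within narrow ranges under the 4 depth-matched choices, whereas Igfbp6, Cytl1 and Mgp lie nearer to 0 under each other choice than with 1 partner.

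Single libraries mattered as well. The count of genes that passed was 0 without Dsp_het library 1, where Cldn5 came closest (adjusted p = 0.0998, edgeR), and 29, 4, 17, 7 and 47 without Dsp_het library 2, Dsp_het library 3, and control libraries 1, 2 and 3. Every one of the 17 kept its direction when any library was left out. With all libraries the EGFP RNA (GFP) had a log2 fold change of 0.00 ± 0.04 (adjusted p = 0.9995, edgeR), with 3711 ± 615 CPM in Wt1-expressing cells and 3702 ± 564 CPM in partners (SD, n = 6), and 91.2% to 91.8% of cells held a UMI of it. Tomato, the reporter before recombination, averaged 10.3 ± 6.55 CPM and 11.2 ± 11.2 CPM in the same order.

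The cells were also described by their number of Wt1 UMIs, which the rule used, so that no support is drawn from it. Adamts1 had 88.5 CPM in partners without Wt1, 113 CPM in the 812 paired cells with 1 Wt1 UMI and 167 CPM in the 114 with at least 2. Nes had 192, 242 and 329 CPM, and Cldn5 had 440, 576 and 602 CPM. Apoe went down, with 405, 336 and 273 CPM. Cd74 showed no such order, with 64.7, 27.2 and 59.8 CPM, and GFP was level at 3515, 3578 and 3545 CPM. These are pooled over libraries and untested, and the libraries are unequally represented, since 18.4% of the Wt1-expressing cells of Dsp_het library 3 held at least 2 Wt1 UMIs, against 9.83% to 14.0% in the other 5. Cells with at least 2 Wt1 UMIs were deeper, with a median of 5194.5 UMIs. Paired with partners of their own depth, those cells gave log2 fold changes of 1.00 for Adamts1, 0.87 for Nes, 0.56 for Cldn5 and 0.89 for Cd74, and with 114 pairs no gene passed.

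**Figure D4:**
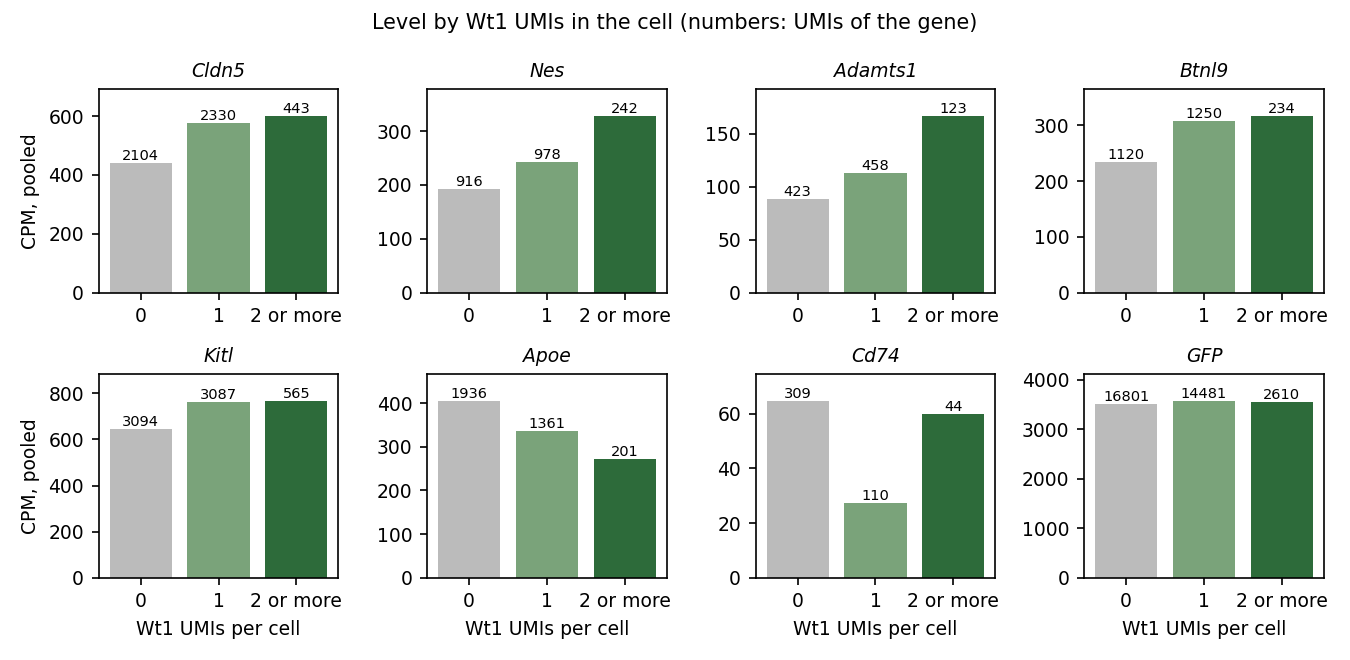
Pooled CPM of 8 genes in paired endothelial cells with 0 (partners), 1, and 2 or more Wt1 UMIs, with the UMI count of the gene above each bar. Adamts1 goes from 88.5 to 167 CPM and Apoe from 405 to 273 CPM over the 3 classes, Cd74 has no order and EGFP (GFP) is level; libraries are unequally represented in the classes.

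The other gene lists showed how far the pattern reached. Of 13 arterial genes tested, 12 were higher and none passed, with a median of 0.21 on the log2 scale against -0.003 for all genes. Dll4, a Notch ligand of arteries and tip cells, was at 0.34 (132 CPM in Wt1-expressing cells and 102 CPM in partners, higher in 6 of 6 libraries, adjusted p = 0.167, edgeR), Gja4, an arterial gap junction protein, at 0.43 and Alpl at 0.46. Of 12 venous genes, 10 were lower with a median of -0.23, and Mgp and Plvap passed. Vwf, von Willebrand factor, was at -0.54 with 114 CPM in Wt1-expressing cells and 180 CPM in partners (adjusted p = 0.229), and Nr2f2, the venous fate factor, at -0.20. The 6 endocardial genes tested had a median of -0.38, and Cytl1 and Plvap passed. Summed over the list, the venous genes had 967 ± 213 CPM in Wt1-expressing cells and 1252 ± 355 CPM in partners, lower in all 6 libraries, and the arterial genes 1481 ± 123 CPM and 1357 ± 172 CPM, higher in 4 of 6. Of 14 capillary genes, 6 were higher and 8 lower with a median of -0.02, and Btnl9 alone passed.

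Per cell, 74.8 ± 7.98% of Wt1-expressing cells and 69.0 ± 10.0% of partners held at least 3 UMIs of the arterial list (SD, n = 6 libraries). The Wt1-expressing cells were higher in 6 of 6 libraries, and the exact sign-flip p of 0.031 is the smallest that 6 pairs can give. After adjustment over 7 lists it was 0.219, and it did not pass. A single list at the smallest p cannot go below 0.219 after this adjustment, so the adjusted test could not decide on the arterial list alone. The capillary list could show no difference, with 100% of cells marked in both sets. For the venous list the shares were 50.003 ± 11.2% and 49.98 ± 9.01%, and for the endocardial list 11.6 ± 4.18% and 14.7 ± 6.49% (exact p = 0.125). Left without cells that held at least 3 UMIs of the venous or endocardial list, a choice made after the first results were seen, 470 pairs stayed and 3 genes passed, none of them among the 17. In those pairs Adamts1 was at 0.49, Btnl9 at 0.29, Nes and Cldn5 at 0.26 and Apoe at -0.26.

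Of 17 reported WT1 target genes that were tested, 11 were higher, with a median of 0.05, and Nes alone passed. Ets1, the ETS factor that WT1 has been reported to activate in endothelium, was at 0.06 (405 CPM in Wt1-expressing cells and 387 CPM in partners, adjusted p = 0.909), Bcl2 at 0.17, Podxl, a target in podocytes, at 0.03 and Vegfa at -0.75 (adjusted p = 0.609, edgeR). Of 15 basement membrane genes, 13 were higher with a median of 0.09, and the only 1 that passed was Col15a1, which was lower. Perlecan, Hspg2, was at 0.16 and nidogen, Nid1, at 0.21, and the list summed higher in Wt1-expressing cells in 6 of 6 libraries. Of 18 cell cycle genes, 15 were lower with a median of -0.37 and none passed. Mki67, a marker of cycling cells, was at -1.10 with 9.45 CPM in Wt1-expressing cells and 26.8 CPM in partners (adjusted p = 0.639, edgeR). Of 22 angiogenic genes 17 were higher (median 0.10), of 20 interferon genes 13 were lower (median -0.03), and of 15 Notch genes 9 were higher (median 0.02), with Plvap on the angiogenic list as the only 1 past the test. Genes of VEGF and apelin signalling and of fatty acid uptake were evenly split, 9 of 18 and 6 of 12 higher. Pericyte and smooth muscle genes were lower in 10 of 13 (median -0.39), with none past the test, and the list summed higher in Wt1-expressing cells in 3 of 6 libraries. Their direction hung on the partners. Acta2 was at -0.39 with 1 partner, 0.69 with 2, -2.52 with 4 and 2.49 without a match on depth. Tagln was at 0.24, 1.26, -2.29 and 2.59 in the same order. Both passed under the last 2 choices, in opposite directions. Kcnj8 was lower with 1, 2 and 4 partners, at -1.02, -1.73 and -1.33.

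Between genotypes, Wt1-expressing endothelial cells of Dsp_het hearts had more RNA of 4 genes, Nov, Igfbp5, Mfap5 and Zfp985, and less of Spata7. The fit compared the 6 sums of these cells, 3 Dsp_het and 3 control, over 7460 genes, of which 4 passed as higher (0.0536%) and 1 as lower (0.0134%), together 0.067%, with 417 at an unadjusted p under 0.05. The groups of 3 did not overlap for any of the 5, as they did not for 9.99% of all genes tested. Each was found in a minority of cells.

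Nov, a matricellular protein of the CCN family, had 38.2, 56.2 and 50.2 CPM in Dsp_het libraries, against 17.5, 12.7 and 10.9 CPM in control libraries. The log2 fold change was 1.83 ± 0.28 (adjusted p = 0.0105, edgeR), and 10.8% of Dsp_het and 4.98% of control cells held a UMI. Igfbp5, an IGF-binding protein of the matrix, had 271, 475 and 306 CPM in Dsp_het libraries, against 155, 36.5 and 37.03 CPM in control libraries, with a log2 fold change of 2.18 ± 0.34 (adjusted p = 0.0105). Here 5 cells held 54.3% of the Dsp_het UMIs and 60.0% of the control UMIs, so few cells set its level. Mfap5, a microfibril protein of fibroblasts and large vessels, had 43 UMIs in 27 of 399 Dsp_het cells and 7 UMIs in 6 of 542 control cells (log2 fold change 3.03 ± 0.55, adjusted p = 0.0321, edgeR). Zfp985, a zinc finger gene, had 58.1, 82.8 and 77.2 CPM against 29.8, 36.5 and 34.1 CPM, with Dsp_het first, and a log2 fold change of 1.13 ± 0.21 (adjusted p = 0.0495, edgeR).

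Spata7, a ciliary protein, went the other way, with 13.8, 24.98 and 19.6 CPM in Dsp_het libraries, against 72.0, 38.05 and 99.5 CPM in control libraries. The log2 fold change was -1.91 ± 0.31 (adjusted p = 0.0126, edgeR). The share of cells with a Spata7 UMI was 7.52% in Dsp_het and 7.93% in control, and 5 control cells held 63.6% of the control UMIs. The shares were close, and the control cells that held Spata7 had more UMIs of it. Eln, elastin, missed the threshold at 62.4 ± 11.4 CPM in Dsp_het and 26.6 ± 4.34 CPM in control (log2 fold change 1.19, adjusted p = 0.0532, edgeR). So did the microtubule and chromatin genes Stmn1 and Hmgb2, at -1.01 and -0.99 (adjusted p = 0.14 and 0.279), Cxcr4, the chemokine receptor, at -0.99 (adjusted p = 0.28) and the splicing factor gene Cdc5l at -0.70 (adjusted p = 0.284). GFP had 4003 ± 71.7 CPM in Dsp_het and 3019 ± 146 CPM in control, without overlap (log2 fold change 0.41, adjusted p = 0.445, edgeR). Over all endothelial cells, without normalization, GFP had 4155, 3816 and 4110 CPM in Dsp_het and 3218, 3525 and 3265 CPM in control. That gap was thus not particular to the Wt1-expressing cells.

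**Figure D5:**
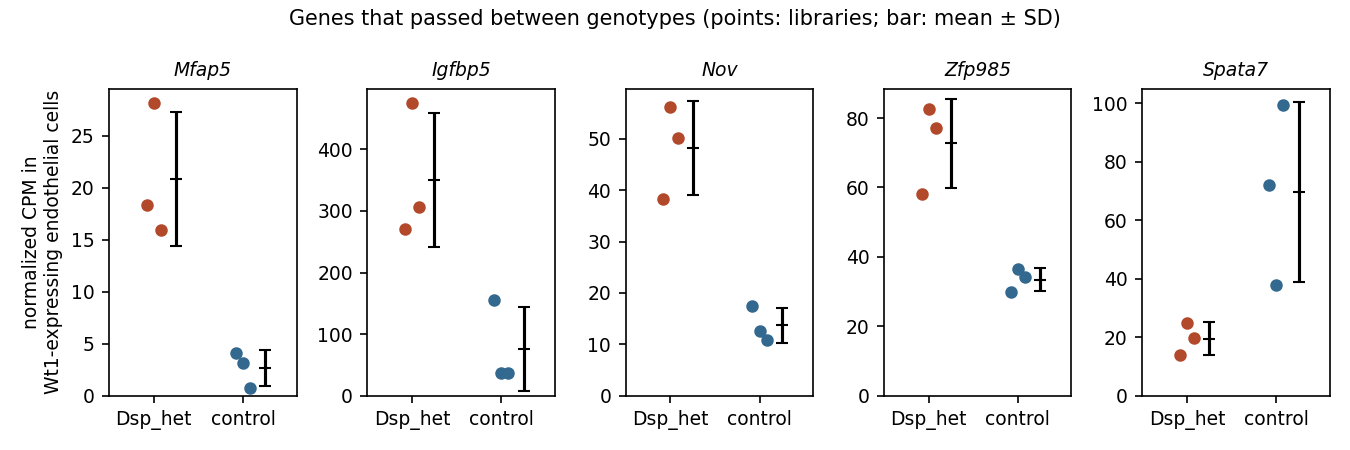
Normalized CPM in Wt1-expressing endothelial cells for the 5 genes that passed between genotypes, with 3 Dsp_het libraries left and 3 control libraries right in each panel, points for libraries and mean ± SD beside them. The groups do not overlap in any panel, and Igfbp5 and Spata7 spread most in the groups where they are high.

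These calls rested on single libraries and on the barcodes used. None passed without Dsp_het library 1 or without Dsp_het library 3, 1 passed without Dsp_het library 2, and 16, 23 and 3 passed without control libraries 1, 2 and 3. Without control library 1 Igfbp5 was at 3.24 and Mfap5 at 3.62, and without control library 3 Mfap5 was at 2.41 and did not pass (adjusted p = 0.252, edgeR). DESeq2 called 2, Nov and Spata7 (adjusted p = 0.0119 and 0.0103). With cells whose barcode occurred in 1 library, Spata7 alone passed, at -2.31 (adjusted p = 0.000935, edgeR), while Nov stood at 1.21 and Igfbp5 at 0.95 (adjusted p = 0.894 and 0.999). In the depth-matched Wt1-free partners, Nov was at 0.93, Igfbp5 at 0.75, Spata7 at -0.73, Zfp985 at 0.64 and Eln at 1.20, in the same directions as in the Wt1-expressing cells, and none of them passed there (adjusted p = 0.921, 0.979, 0.967, 0.944 and 0.141).

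Tested markers of fibroblasts and mesothelium mostly stood higher in Dsp_het in these cells, and both list sums averaged higher in Dsp_het partners too. All 5 tested mesothelial list genes were higher in Dsp_het, with a median of 0.68 against 0.005 for all genes, and 3 of 4 fibroblast genes, with a median of 0.65; Mfap5, itself on the fibroblast list, was the only 1 to pass. The fibroblast list summed to 219, 151 and 269 CPM in Dsp_het libraries, against 120, 169 and 149 CPM in control libraries, so that the groups overlapped. The mesothelial list summed to 2438, 2899 and 2535 CPM in Dsp_het libraries, against 2369, 2294 and 1921 CPM in control libraries. As said above, that sum comes mostly from Cav1 and Cd200. In the depth-matched Wt1-free partners the fibroblast list summed to 225, 140 and 264 CPM in Dsp_het and 124, 190 and 158 CPM in control. The partners' mesothelial list summed to 2525, 2655 and 2541 CPM in Dsp_het and 2488, 2505 and 2175 CPM in control. The part of these markers in the higher Nov, Igfbp5 and Mfap5 was not tested.

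By list, 19 of 20 interferon genes were lower in Dsp_het, with a median of -0.29 and none past the test. Bst2, an antiviral membrane protein, had 579 ± 206 CPM in Dsp_het and 857 ± 130.5 CPM in control (SD, n = 3 each, adjusted p = 0.637, edgeR). All 9 cell cycle genes tested were lower (median -0.43), 18 of 23 immediate early and heat shock genes were lower (median -0.23) and 8 of 9 venous genes were higher (median 0.43), with none past the test in any of these lists. Mean sums of these lists went the same way in the Wt1-free partners. Interferon genes had 4510 CPM in Dsp_het partners and 5168 CPM in control partners, beside 4433 and 5185 CPM in Wt1-expressing cells. Venous genes had 1539 and 965 CPM in partners, beside 1126 and 809 CPM. Cell cycle genes had 2025 and 2233 CPM in partners, beside 1455 and 2085 CPM. Immediate early and heat shock genes had 8476 and 9505 CPM in partners, beside 8477 and 9341 CPM. Arterial genes were split, 6 higher and 7 lower, as were capillary genes, 9 higher and 5 lower. Desmosome and adherens junction genes, the group Dsp belongs to, were 6 higher and 8 lower of 14, with a median of -0.02.

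Last, the fit over all 12 sums asked whether the gap between Wt1-expressing cells and partners differed between genotypes. It did for 3 of 8077 genes (0.0371%), 1 of them with a higher gap in Dsp_het (0.0124%) and 2 with a lower one (0.0248%), with 383 at an unadjusted p under 0.05 and none by DESeq2. Edn1, the vasoconstrictor peptide endothelin-1, had 79.6, 56.9 and 23.6 CPM in Wt1-expressing cells of Dsp_het, against 98.0, 49.1 and 60.9 CPM in their partners. In control it had 73.5, 152 and 95.6 CPM in Wt1-expressing cells, against 26.0, 52.3 and 53.0 CPM in partners. All 3 control libraries were thus higher in the Wt1-expressing cells and 2 of 3 Dsp_het libraries lower, and the difference of the gaps was -1.62 ± 0.29 on the log2 scale (adjusted p = 0.016, edgeR). Timp4, an inhibitor of metalloproteases that capillary endothelium expresses, had a difference of 0.71 ± 0.13 (adjusted p = 0.016). It stood at 195, 559 and 479 CPM in Wt1-expressing cells of Dsp_het against 211, 466 and 370 CPM in partners, and at 234, 210 and 370 CPM in Wt1-expressing cells of control against 340, 287 and 514 CPM in partners. Lrg1, a secreted glycoprotein of venules, had a difference of -3.67 ± 0.61 (adjusted p = 0.0151, edgeR) at no more than 68.4 CPM in any sum.

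None of the genes of the Wt1 comparison was among these 3, and GFP was at 0.04 (adjusted p = 0.9996, edgeR). Of the 13 arterial genes, 11 had a lower gap in Dsp_het, with a median of -0.33, and of the 18 cell cycle genes 17, with a median of -0.73, while 13 of 14 capillary genes had a higher gap, with a median of 0.14. Timp4 alone among these passed. Stmn2, a microtubule protein listed with the arterial genes, came next at -0.58 (adjusted p = 0.11), followed by Mtss1 at 0.76, H2afx at -1.45, Trp53i11 at 0.59, Cxcr4 at -1.33, Dgkh at 0.88 and Cep162 at 1.86, with adjusted p-values between 0.186 and 0.638 (edgeR).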

How the data were processed

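The matrix deposited by the authors holds raw UMI counts for 31055 gene symbols, GFP and Tomato included, and 18283 barcodes of 6 libraries, whose column sums equalled the deposited total UMI counts for all barcodes. Per the submitters' processing notes, GRCm38 and Seurat were used; no aligner or counter is given in the sources used here. Barcode suffixes were matched to the sample numbers in the labels. The members, gene lists and tests were chosen with earlier results of these data known. Shared barcodes were kept in the library with most UMIs. No doublet caller was run; a limit of 15000 UMIs, which 29 of the cells exceeded, served as an alternative.

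Partners were assigned without replacement, deepest cell first, and 15 cells had none. Sums were fitted with edgeR 4.0.16 in R 4.3.3 (TMM, filterByExpr with a minimum count of 10, threshold 0.05 on adjusted p); DESeq2 1.42.0 was the other tool. P-values are two-sided. The genotype fit has no covariate, and the interaction is library block plus status by genotype. On simulated counts changed by log2 1 and 2, the Wt1 status fit over 7930 genes recovered 85.7% and 97.0%. The genotype fit over 7208 genes recovered 78.1% and 96.8%, and the interaction over 7932 genes 45.0% and 84.8%. Only sums were simulated, not cells, so genes whose UMIs lie in few cells were not imitated. The 5 higher genes of the Wt1 comparison changed by less, 0.23 to 0.44, and recovery at that size was not simulated. Shares were tested exactly over libraries in Python 3.11.15 with scipy 1.17.1. The list "remaining" genes exclude those of the rule. Symbols were placed with GENCODE on GRCm38.

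Named genes are up to 12 per direction by fold change that passed, had the same sign in 6 libraries (or, between genotypes, groups that did not overlap) and at least 10 CPM; up to 4 passing genes per list; where fewer than 10 passed, the 5 smallest p-values per direction; and GFP, Tomato, Dsp and Wt1. Other list members were named after their values were seen. Figures used matplotlib 3.10.9.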

Additional observations from a re-analysis of the deposited data

Results flagged for a closer look

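The gap between Wt1-expressing endothelial cells and their Wt1-free partners differed between Dsp_het and control for Lrg1, Edn1 and Timp4 by the interaction test (edgeR, adjusted p = 0.0151, 0.016 and 0.016), with differences of -3.67, -1.62 and 0.71 on the log2 scale. Without Dsp_het library 3 or without control library 1 no gene passed this test. Lrg1 had 6.00, 4.88 and 16.2 CPM in Wt1-expressing cells of Dsp_het against 10.9, 32.7 and 68.4 CPM in partners, and 43.2, 0 and 16.1 CPM in Wt1-expressing cells of control against 14.1, 3.17 and 2.57 CPM in partners, so its gaps overlapped between genotypes.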

How the results depend on the processing

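Against 17, 5 and 3 genes in the Wt1 comparison, the genotype comparison and the interaction, DESeq2 called 1, 2 and 0, no filter on low counts 57, 107 and 28, and at least 2 Wt1 UMIs 0 in each. The Wt1 comparison gave 81 with barcodes of 1 library, 10 with at least 2000 UMIs, 33 with at most 15000 UMIs, 92 with 4 partners, 58 without a match on depth, 3 without venous or endocardial cells and 0 without the library block. The genotype comparison gave 1 with barcodes of 1 library. The interaction gave 6 with at most 15000 UMIs, 5 with 2 partners, 11 with 4 partners and 20 without a match on depth. Leaving out 1 library each gave 0 to 47, 0 to 23 and 0 to 16. The causes were not tested.

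The numbers of the labels are not said to pair the libraries, and same-numbered libraries correlated at 0.084, -0.021 and 0.015 in their deviations; with the number as a replicate block, 25 genes passed between genotypes. The 10% limit on mitochondrial UMIs, the 4 partners, the weighted cells, the sex of the library as a covariate (4 genes between genotypes) and the exclusion of venous or endocardial cells were chosen after seeing the data. RLE size factors gave 17, 4 and 3.

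Signs turned for EGFP and Tomato, and under 1 setting each for Cd74 and Stmn2. In the main fits of the Wt1 comparison and the interaction EGFP was near 0, and Tomato was at -0.13 ± 0.35 and 0.53 ± 0.79 in the same order. Between genotypes EGFP was at 0.41, and its sign did not turn. EGFP between Wt1-expressing cells and partners was -0.0604 with barcodes of 1 library, -0.0135 with at least 2 Wt1 UMIs, -0.000269 with at most 15000 UMIs, -0.0152 without mesothelial UMIs, -0.0103 with weighted cells, -0.143 without a match on depth, -0.00664 with the mitochondrial limit, -0.0149 without venous or endocardial cells, and -0.0138 to 0.0287 with 1 library left out. Tomato was 0.0850 with DESeq2, 0.00136 with 4 partners, 0.344 without a match on depth and -0.30 to 0.26 with 1 library left out. In the interaction, EGFP was -0.0931 with at least 2 Wt1 UMIs, -1.27e-05 without mesothelial UMIs, -0.00854 with weighted cells and -0.0135 to 0.0863 with 1 library left out, and Tomato was -0.160 with 2 partners, -0.0531 with 4 partners, -0.0397 without a match on depth and -0.0137 to 2.04 with 1 library left out. Cd74, at -1.02 in the main Wt1 comparison, was 0.89 with at least 2 Wt1 UMIs. Stmn2, at -0.58 in the main interaction, was 0.0876 without a match on depth.

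The share of cells with venous RNA, 0.0206 percentage points higher in Wt1-expressing cells, was -3.64 with at least 5 UMIs, -0.888 with 2 partners and -0.688 with 4 partners. Leaving out 1 library moved it between -1.33 and 1.34, and the difference in Wt1 share between genotypes between -0.991 and 1.43 percentage points. The Wt1-expressing cells, 98 to 209 per library, limit what low genes can show, and Wt1 itself was 1 UMI in most.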
